A study of Mus musculus with 9 samples.

Results

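The voltage-gated and potassium ion channel genes of the mouse heart were described over 3 genotypes. They were chosen by name: every array probe set with 1 annotation symbol that starts with Kcn, Cacn, Hcn and a digit, or Scn and a digit, with Kcnj8 left out, and with the probe set of the highest mean standing for each gene. The rule gave 128 of the 22180 genes that had a probe set with 1 symbol. Of these, 67 were tested because their mean log2 signal exceeded 5.21, the median of the array's probe sets, and 61 lay at or below it. The name rule also takes in 3 genes that code for no channel subunit: the long non-coding RNAs Kcnq1ot1 and Kcnd3os, and Kcnrg, a regulator.

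RNA came from hearts of 2 month old mice, 1 heart per array and 3 hearts per genotype. Col4a3-/-OPN-/- mice lack Col4a3, which codes for a chain of type IV collagen, and osteopontin, a secreted matrix protein. Col4a3-/- mice lack the collagen chain alone and model Alport syndrome, and wild type mice carry neither mutation. Both mutant genotypes therefore share the Col4a3 mutation, and the labels give neither strain nor sex. The labels name a small RNA labelling kit, while the annotation of the platform is that of a mouse gene array, so how the RNA was labelled is uncertain and the values were read as gene transcript signals. The values are log2 signals, a difference of 1 on this scale is a 2-fold difference, and the level of a probe set cannot be set against that of another.

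Voltage-gated sodium channels carry the upstroke of the cardiac action potential, calcium channels carry its plateau and trigger contraction, and potassium channels bring the membrane back to rest. Pore-forming alpha subunits conduct the ion, and auxiliary subunits set how many channels reach the membrane and how they open and close. HCN channels carry the pacemaker current, inward rectifiers hold the resting potential, and potassium channels opened by calcium are best known in vascular smooth muscle, nerve and atrial muscle.

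Over the 13650 tested probe sets the 9 arrays correlated at r from 0.936 to 0.986. Probe sets of ventricular myocytes such as Myh6 and Tnni3 were bright in every heart, and the mean of 7 such markers was 11.6 to 11.7 in Col4a3-/-OPN-/-, 11.3 to 11.7 in Col4a3-/- and 11.6 to 11.7 in wild type. Col4a3 itself was near the median signal in all genotypes, at 4.87 to 5.26 in Col4a3-/-OPN-/-, 4.96 to 5.27 in Col4a3-/- and 5.07 to 5.52 in wild type, and the level of osteopontin was not analysed here. Xist was high and the Y-linked Eif2s3y low in Col4a3-/-OPN-/- replicate 2 and in Col4a3-/- replicates 1 and 3, and in none of the wild type hearts, so the genotypes are not balanced for this pattern. Col4a3-/- replicate 3 stood apart by 4 acute response genes (Saa3, Sele, Icam1 and Lcn2), with a mean of 8.995 against 6.40 or less in the other 8 hearts. Col4a3-/- replicate 2 stood apart by airway markers (3 measured, 1 above the filter), with a mean of 8.56 against 6.73 or less in the other 8 hearts, and by brown fat markers (3 measured, all above the filter), with a mean of 10.87 against 9.88 or less. Neither signal was confined to it. The airway gene Scgb1a1 was also at 9.81 and 9.52 in Col4a3-/-OPN-/- replicates 1 and 3. The brown fat mean was lowest in Col4a3-/- replicates 1 and 3 (8.35 and 8.40), where Ucp1 was at 4.79 and 5.03 against 6.81 or more in all other hearts. The 4 endothelial markers had a mean of 8.95 to 9.30 in Col4a3-/-OPN-/- hearts, and all Col4a3-/- hearts (average 8.83, lowest 8.53) lay below the wild type hearts at 9.09 to 9.20. The single markers did not share this order. In Col4a3-/- minus wild type Cdh5 (-0.43) was lower without overlap, while Kdr (-0.76), Tie1 (-0.08) and Pecam1 (-0.06) overlapped. Pecam1 was highest of all hearts in Col4a3-/- replicate 3 (9.82). With the Y-linked signal of each heart as a covariate 0 channel genes passed the test below. None passed without it either, so this count cannot show what part the pattern has. Of the genes with the smallest p-values the difference of Cacna2d2 moved by over 1.5 times, which is given beside it. The RNA came from heart tissue of many cell types, and the labels do not say which parts were taken. Fewer cells of a type, uneven sampling and less RNA per cell therefore cannot be told apart.

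Upstream sequences are shown for 4 of the genes with the smallest p-values of the F-test over the 3 genotypes, those with a single start in the RefSeq promoter table (GRCm38.p6). Each run is the 250 bases before the start of transcription, and capitals mark a match to a searched motif. Kcnmb1 lies at chr11:33962763-33963012 on the plus strand, Scn4b at chr9:45138374-45138623 on the plus strand, Scn7a at chr2:66784911-66785160 on the minus strand and Cacng7 at chr7:3332575-3332824 on the plus strand.
Kcnmb1: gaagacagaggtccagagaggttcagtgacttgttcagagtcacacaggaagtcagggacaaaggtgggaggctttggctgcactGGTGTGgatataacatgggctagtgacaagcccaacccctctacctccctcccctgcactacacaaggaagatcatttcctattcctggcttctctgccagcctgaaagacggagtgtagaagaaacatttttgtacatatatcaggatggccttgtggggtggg
Scn4b: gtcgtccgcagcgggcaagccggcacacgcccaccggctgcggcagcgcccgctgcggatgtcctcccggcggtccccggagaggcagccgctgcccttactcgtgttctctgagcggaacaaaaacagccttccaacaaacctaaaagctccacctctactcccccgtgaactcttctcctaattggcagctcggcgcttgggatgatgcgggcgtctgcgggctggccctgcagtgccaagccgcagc
Scn7a: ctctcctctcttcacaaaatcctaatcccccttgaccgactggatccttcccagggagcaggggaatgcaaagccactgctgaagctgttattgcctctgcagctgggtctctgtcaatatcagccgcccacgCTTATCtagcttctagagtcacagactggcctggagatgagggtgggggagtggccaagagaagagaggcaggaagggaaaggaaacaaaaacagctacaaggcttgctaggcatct
Cacng7: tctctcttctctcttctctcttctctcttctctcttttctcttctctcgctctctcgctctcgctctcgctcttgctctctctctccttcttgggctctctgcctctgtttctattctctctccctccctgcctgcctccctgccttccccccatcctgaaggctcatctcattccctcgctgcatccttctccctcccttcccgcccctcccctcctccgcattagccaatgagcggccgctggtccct
Both strands were searched for TATAAA, the T-box core GGTGTG, the GATA core GATAAG, the E-box CACGTG, the CArG box and the MEF2 box, and no matches overlapped in these windows. The Kcnmb1 window held GGTGTG from -165 to -160 and the Scn7a window held GATAAG on the opposite strand from -117 to -112, while the windows of Scn4b and Cacng7 held none of the 6. GGTGTG stood in 18.7% of the 134 windows of the channel genes and in 16.3% of all 32851 windows, and GATAAG in 7.46% and 6.55%. TATAAA stood in 2.99% of the channel gene windows and 12.4% of all windows, and CACGTG in 4.48% and 6.02%. The CArG box, known from smooth muscle genes, stood in 0 of the channel gene windows and 1.47% of all, and the MEF2 box in 0.746% and 0.508%. The table held windows for 99 of the 128 genes and none for Kcnj11, Cacna1g, Kcnj14, Cacng4 and Kcne1.

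No channel gene passed the test in any comparison (limma, Benjamini-Hochberg adjusted p under 0.05 over all tested probe sets). In Col4a3-/- against wild type hearts 0 of 67 passed, as did 0% of all 13650 probe sets. The count was also 0 of 67 in Col4a3-/-OPN-/- against Col4a3-/- hearts, where 0.0440% of all passed, and in Col4a3-/-OPN-/- against wild type hearts, where 0% of all passed. The F-test over the 3 genotypes also gave 0 of 67, against 0.0147% of all, with a smallest adjusted p of 0.227 among the channel genes. Without adjustment 17 of 67 (25.4%) had an F-test p under 0.05, against 9.30% of all probe sets. Every gene named below is therefore described by its values, and no difference is a call.

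Unadjusted p-values under 0.05 were most frequent between the mutant genotypes. Between Col4a3-/-OPN-/- and Col4a3-/- hearts 18 of 67 genes (26.9%) were under 0.05, 12 higher and 6 lower, while all tested probe sets gave 13.6% (8.58% higher and 5.03% lower). In Col4a3-/- against wild type hearts 9 of 67 (13.4%) were under 0.05, 1 higher and 8 lower, against 8.35% of all (2.39% higher and 5.96% lower). Between Col4a3-/-OPN-/- and wild type hearts 8 of 67 (11.9%) were under 0.05, 4 higher and 4 lower, against 3.68% of all (1.89% higher and 1.79% lower). The comparisons share hearts, so their counts are not independent of each other.

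**Figure D1:**
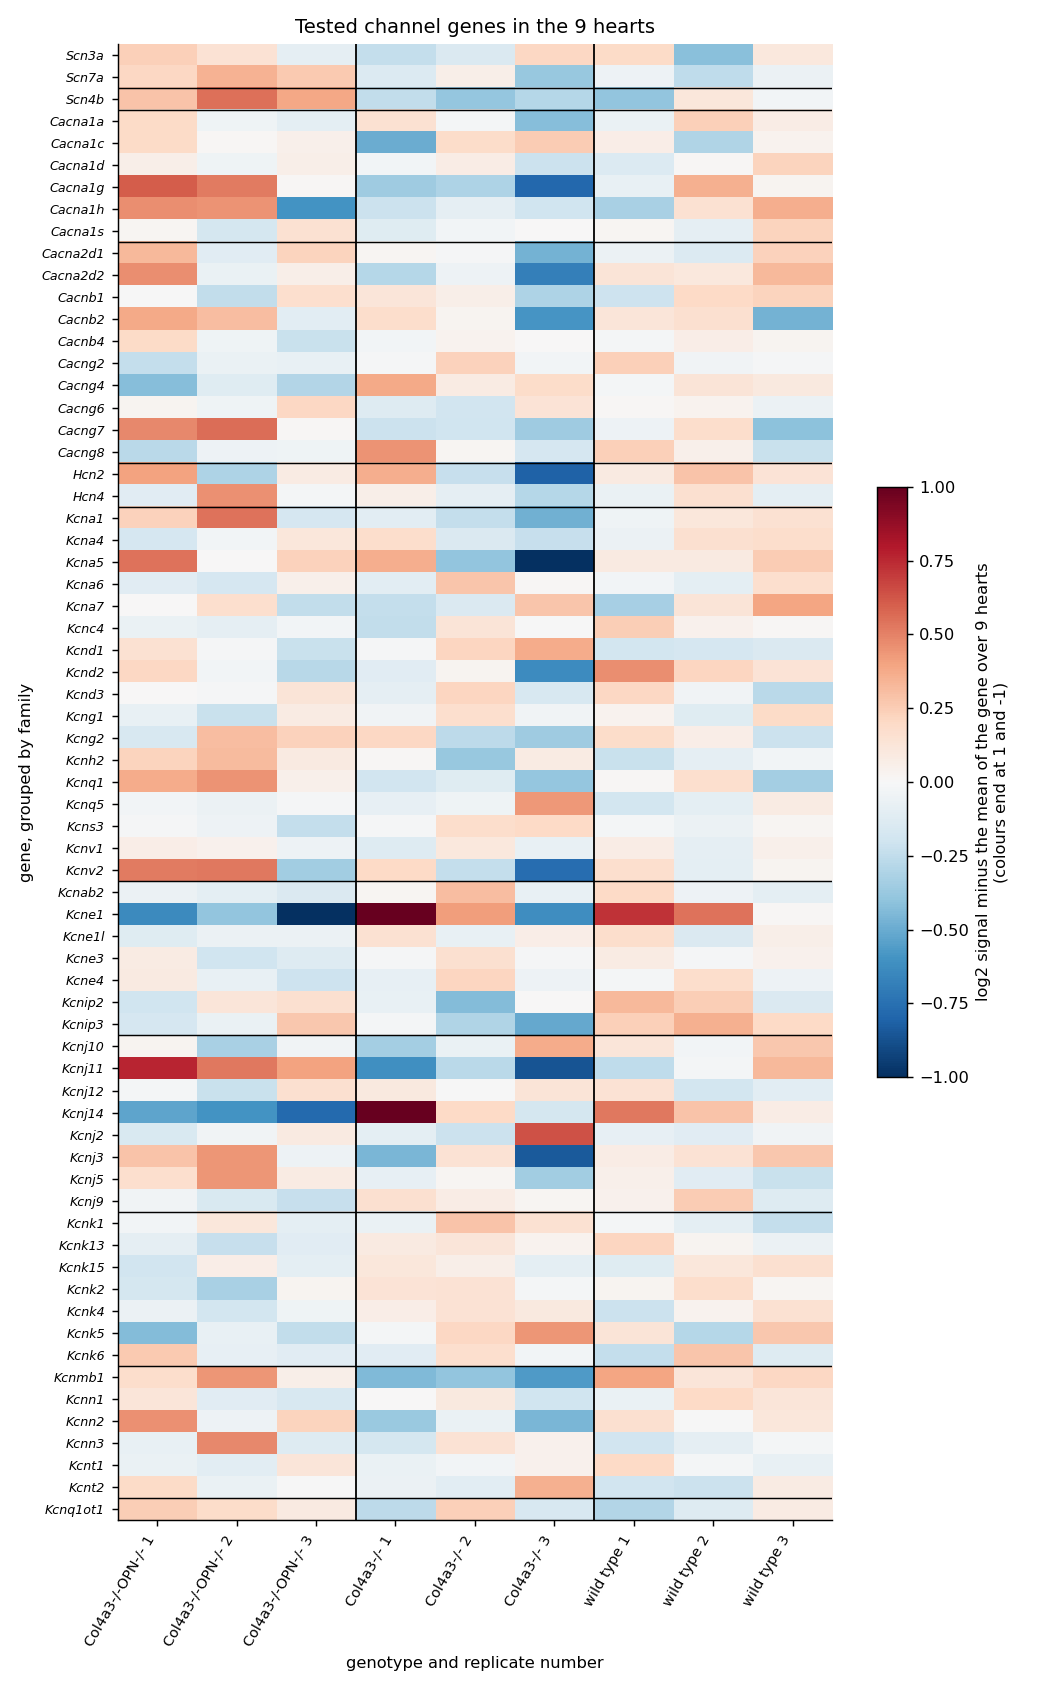
Log2 signal of the 67 tested channel genes (rows, grouped by family between the black lines, in alphabetical order within a family) in the 9 hearts (columns), shown as the deviation from the mean of the gene over all hearts, with colours ending at 1 and -1. Col4a3-/- replicate 3 holds most of the dark blue cells outside Kcne1 and Kcnj14, and Kcnj11 is red in all 3 Col4a3-/-OPN-/- hearts and blue in all 3 Col4a3-/- hearts.

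For most genes the hearts of the compared genotypes overlapped. The Col4a3-/-OPN-/- hearts did not overlap the Col4a3-/- hearts for 17 of 67 genes (25.4%), 10 higher and 7 lower, against 16.5% of all probe sets (10.1% higher and 6.48% lower). The higher ones were Cacna1g, Cacng7, Kcnn2, Kcnmb1, Kcnj5, Kcnj11, Scn7a, Scn4b, Kcnh2 and Kcnq1, and the lower ones were Cacng4, Cacng2, Kcnj14, Kcnj9, Kcnk4, Kcnk13 and Kcnk5. In Col4a3-/- against wild type hearts 9 genes (13.4%) had no overlap, against 12.5% of all (4.58% higher and 7.90% lower). Kcnd1 was the higher one, and Cacna1g, Cacna2d2, Kcnn2, Kcnmb1, Kcnj11, Kcnip3, Kcnd2 and Kcna1 were lower. Against wild type hearts the Col4a3-/-OPN-/- hearts had no overlap for 12 genes (17.9%), against 13.2% of all (7.55% higher and 5.65% lower), with Kcnj5, Kcnj11, Kcnq1ot1, Scn7a, Scn4b and Kcnh2 higher and Cacng4, Cacng2, Kcnj14, Kcne1, Kcnk13 and Kcnc4 lower. Cacng2, Kcnj9, Kcnk13 and Kcnk5 had a Col4a3-/-OPN-/- mean below the filter (4.99 to 5.16), Scn4b a Col4a3-/- mean (5.17) and Kcnd1 a wild type mean (5.20). These genes passed the filter only through the genotypes in which they were higher. Their place in these counts is therefore uncertain, and the counts of unadjusted p-values above hold such genes too.

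The median log2 difference over the 67 genes was small in each comparison. It was 0.044 in Col4a3-/-OPN-/- minus Col4a3-/- hearts, with 38 genes positive and 29 negative, while 57.7% of all probe sets were positive and 42.3% negative, with a median of 0.043. Col4a3-/- minus wild type hearts had a median of -0.044, with 26 genes positive and 41 negative, while 45.0% of all probe sets were positive and 55.0% negative, with a median of -0.023. Col4a3-/-OPN-/- minus wild type hearts had a median of -0.016, with 32 genes positive and 35 negative, while 53.1% of all were positive and 46.9% negative, with a median of 0.011. Centring each array on its median over the tested probe sets moved every difference by -0.114 in Col4a3-/-OPN-/- minus Col4a3-/-, by 0.068 in Col4a3-/- minus wild type and by -0.046 in Col4a3-/-OPN-/- minus wild type, so signs near 0 depend on the scaling. With it 27 of the 67 genes were positive and 40 negative in Col4a3-/-OPN-/- minus Col4a3-/-, 37 positive and 30 negative in Col4a3-/- minus wild type, and 27 positive and 40 negative in Col4a3-/-OPN-/- minus wild type. Among all probe sets 37.1%, 59.5% and 40.9% were then positive in the same order of comparisons.

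Brighter and dimmer genes are given apart here, in a split at 1 log2 unit above the filter that was chosen after the values were seen. Of the 27 brighter genes, 22 had a positive and 5 a negative difference in Col4a3-/-OPN-/- minus Col4a3-/- hearts, with a median of 0.29 (18 and 9 with centred arrays), while 64.4% of all equally bright probe sets were positive and 35.6% negative, with a median of 0.08. In Col4a3-/- minus wild type hearts 6 of these 27 were positive and 21 negative, with a median of -0.16 (9 and 18 with centred arrays), while 41.4% of the equally bright probe sets were positive and 58.6% negative, with a median of -0.04. The other 40 genes, within 1 log2 unit of the filter, gave 16 positive and 24 negative differences in Col4a3-/-OPN-/- minus Col4a3-/- hearts, near the 46.1% positive and 53.9% negative among all dim probe sets.

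Col4a3-/- replicate 3 was the lowest of the 9 hearts in 24 of the 67 genes (35.8%), and in 26.1% of all tested probe sets. Without it, 20 of the 27 brighter genes were positive and 7 negative in Col4a3-/-OPN-/- minus Col4a3-/- hearts, with a median of 0.17, and 8 were positive and 19 negative in Col4a3-/- minus wild type hearts, with a median of -0.08. Over the 67 genes 37 were then positive and 30 negative in Col4a3-/-OPN-/- minus Col4a3-/- hearts, and 31 positive and 36 negative in Col4a3-/- minus wild type hearts. Among all probe sets 57.9% and 43.5% were positive in the same order of comparisons. Without this heart 23 of the 67 genes had no overlap between Col4a3-/-OPN-/- and Col4a3-/- hearts, 12 higher and 11 lower, against 17.0% and 10.3% of all probe sets. Between Col4a3-/- and wild type hearts 11 had none, 1 higher and 10 lower, against 8.30% and 13.4% of all. Unadjusted p-values under 0.05 numbered 14 of 67 (20.9%, against 12.4% of all) in Col4a3-/-OPN-/- minus Col4a3-/- and 5 of 67 (7.46%, against 7.19% of all) in Col4a3-/- minus wild type, against 9 of 67 with all hearts.

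Without Col4a3-/- replicate 2, the heart with the highest airway and brown fat marker means, 40 of the 67 genes were positive and 27 negative in Col4a3-/-OPN-/- minus Col4a3-/- hearts, and 19 were positive and 48 negative in Col4a3-/- minus wild type hearts. Among all probe sets 56.8% and 45.0% were then positive in the same order of comparisons. Unadjusted p-values under 0.05 numbered 16 (23.9%, against 17.7% of all) and 9 (13.4%, against 11.6% of all) in these comparisons. The share of all probe sets without overlap was then 31.0% and 26.5%, against 23 (34.3%) and 13 (19.4%) of the 67 genes.

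Of 8 sodium channel alpha subunit genes 2 were tested, and of 3 beta subunit genes 1. Scn7a codes for an atypical sodium channel known for sensing sodium in glia and also found in Schwann cells. It was at 8.79, 8.93 and 8.84 in Col4a3-/-OPN-/- hearts, at 8.45, 8.64 and 8.20 in Col4a3-/- hearts and at 8.53, 8.33 and 8.52 in wild type hearts. The Col4a3-/-OPN-/- hearts were the highest 3 of the 9, while the hearts of the other genotypes overlapped. The difference was 0.42 in Col4a3-/-OPN-/- minus Col4a3-/- (SE 0.14, limma adjusted p = 0.269) and 0.39 in Col4a3-/-OPN-/- minus wild type (SE 0.14, adjusted p = 0.999). The 3 measured Schwann cell markers Mbp, Sox10 and Cnp did not share this order, with a mean of 5.34 to 5.48 in Col4a3-/-OPN-/-, 5.43 to 5.55 in Col4a3-/- and 5.46 to 5.58 in wild type.

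Scn4b codes for a beta subunit that changes how the sodium channel opens again after inactivation. It was at 5.77, 6.04 and 5.86 in Col4a3-/-OPN-/- hearts, at 5.24, 5.09 and 5.19 in Col4a3-/- hearts and at 5.09, 5.60 and 5.45 in wild type hearts. All Col4a3-/-OPN-/- hearts lay above all others, and the Col4a3-/- mean lay below the median signal of the array, so that the size of the difference is uncertain. The log2 difference was 0.72 in Col4a3-/-OPN-/- minus Col4a3-/- (SE 0.13, limma adjusted p = 0.124) and 0.51 in Col4a3-/-OPN-/- minus wild type (SE 0.13, adjusted p = 0.999). Scn3a, a mainly neuronal alpha subunit, lay between 4.93 and 5.58 in all hearts, with overlap throughout. The beta subunit genes Scn2b and Scn3b averaged 4.86 and 4.70, below the filter.

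Of 10 calcium channel alpha subunit genes 6 were tested. Cacna1c, the pore of the L-type channel that triggers contraction, was at 10.16, 9.98 and 10.02 in Col4a3-/-OPN-/- hearts, at 9.48, 10.15 and 10.22 in Col4a3-/- hearts and between 9.67 and 10.04 in wild type hearts. The genotypes overlapped, and the difference in Col4a3-/-OPN-/- minus Col4a3-/- was 0.11 (95% interval -0.31 to 0.52). Cacna1g, the pore of a T-type channel of the sinus node and the conduction system, was at 6.74, 6.65 and 6.14 in Col4a3-/-OPN-/- hearts, at 5.77, 5.82 and 5.34 in Col4a3-/- hearts and at 6.05, 6.49 and 6.16 in wild type hearts. The Col4a3-/- hearts were the lowest 3 of the 9, and the other genotypes overlapped. The log2 difference was 0.86 in Col4a3-/-OPN-/- minus Col4a3-/- (SE 0.19, limma adjusted p = 0.156, 1.82-fold) and -0.59 in Col4a3-/- minus wild type (SE 0.19, adjusted p = 0.496). Markers of the sinus node and conduction system (6 measured, 5 above the filter, Isl1 not) had a mean of 5.86 to 5.94 in Col4a3-/-OPN-/-, 5.74 to 5.89 in Col4a3-/- and 5.73 to 5.84 in wild type. The single markers differed in direction. Cntn2 was at 6.94, 6.52 and 6.45 in Col4a3-/-OPN-/- hearts, above all others, while Tbx3 was highest in Col4a3-/- replicates 2 and 3 (7.65 and 7.87). Shox2, Tbx18 and Gjc1 lay within 1 log2 unit of the filter, so the mean says little of conduction tissue, whose part was not tested.

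Cacna1h, the other T-type pore gene of the heart, had the largest spread within the Col4a3-/-OPN-/- hearts, at 6.20, 6.19 and 5.14. It was at 5.53, 5.65 and 5.54 in Col4a3-/- hearts and at 5.41, 5.89 and 6.10 in wild type hearts, with overlap. Cacna1d, an L-type pore of the sinus node and atria, lay between 5.17 and 5.61 in all hearts. The 6 tested alpha subunit genes had differences from 0.04 to 0.86 in Col4a3-/-OPN-/- minus Col4a3-/- hearts, of which 1, Cacna1g, was under an unadjusted p of 0.05, and from -0.59 to 0.05 in Col4a3-/- minus wild type hearts.

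Of 15 calcium channel auxiliary genes 10 were tested. Cacna2d1 and Cacnb2 code for the alpha2delta and beta subunits of the cardiac L-type channel. Cacna2d1 was at 9.39, 8.95 and 9.29 in Col4a3-/-OPN-/- hearts, at 9.09, 9.06 and 8.59 in Col4a3-/- hearts and at 9.01, 8.93 and 9.30 in wild type hearts. Cacnb2 was at 9.24, 9.17 and 8.75 in Col4a3-/-OPN-/- hearts, at 9.04, 8.88 and 8.27 in Col4a3-/- hearts and at 8.98, 9.02 and 8.39 in wild type hearts. Both overlapped in every comparison, and replicate 3 was the lowest Col4a3-/- heart for both.

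Cacng7 and Cacng4 belong to the gamma subunit family, whose members are known as partners of calcium channels and of glutamate receptors. Cacng7 was at 7.48, 7.56 and 7.01 in Col4a3-/-OPN-/- hearts, at 6.79, 6.80 and 6.64 in Col4a3-/- hearts and at 6.95, 7.18 and 6.59 in wild type hearts. Cacng4 was at 5.61, 5.91 and 5.74 in Col4a3-/-OPN-/- hearts, at 6.41, 6.12 and 6.22 in Col4a3-/- hearts and at 6.02, 6.16 and 6.14 in wild type hearts. The 2 genes thus lay in opposite directions: all Col4a3-/-OPN-/- hearts were above all Col4a3-/- hearts for Cacng7 and below all other hearts for Cacng4. The log2 difference in Col4a3-/-OPN-/- minus Col4a3-/- was 0.61 for Cacng7 (SE 0.19, limma adjusted p = 0.248) and -0.49 for Cacng4 (SE 0.13, adjusted p = 0.175). Against wild type, Col4a3-/-OPN-/- hearts differed by 0.44 for Cacng7 (0.29 without wild type replicate 3), with overlap, and by -0.35 for Cacng4, without. Cacng8 and Cacng6, the next genes to Cacng7 on chromosome 7 in the GRCm38.p6 gene table, had differences of -0.22 and 0.12 in Col4a3-/-OPN-/- minus Col4a3-/- and overlapped.

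Cacna2d2, an alpha2delta subunit gene also known from the brain, was at 6.84, 6.31 and 6.43 in Col4a3-/-OPN-/- hearts, at 6.09, 6.32 and 5.69 in Col4a3-/- hearts and at 6.50, 6.48 and 6.70 in wild type hearts. The Col4a3-/- hearts were all below the wild type hearts, at a log2 difference of -0.53 (SE 0.19, adjusted p = 0.505 in limma), and overlapped the Col4a3-/-OPN-/- hearts. With the smooth muscle signal as a covariate this difference was 0.04, with the atrial signal -0.26 and with the Y-linked signal -0.24.

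The pacemaker genes Hcn2 and Hcn4 overlapped in all comparisons. Hcn2 was at 7.49, 6.78 and 7.17 in Col4a3-/-OPN-/- hearts, at 7.45, 6.86 and 6.28 in Col4a3-/- hearts and at 7.18, 7.38 and 7.22 in wild type hearts. Its spread within Col4a3-/- hearts (SD 0.59) exceeded each of its differences between genotypes, the largest of which in size was -0.40 in Col4a3-/- minus wild type. Hcn4, the main channel of the sinus node, was at 5.49, 6.06 and 5.58 in Col4a3-/-OPN-/- hearts, at 5.65, 5.51 and 5.31 in Col4a3-/- hearts and at 5.53, 5.76 and 5.50 in wild type hearts.

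Of 36 genes for voltage-gated potassium channel alpha subunits 17 were tested. Kcnd2, Kcnd3 and Kcna4 code for pores of the transient outward current, which shapes early repolarization. Kcnd2 was at 9.06, 8.83 and 8.58 in Col4a3-/-OPN-/- hearts, at 8.74, 8.89 and 8.23 in Col4a3-/- hearts and at 9.32, 9.07 and 8.99 in wild type hearts. All Col4a3-/- hearts were below all wild type hearts, the log2 difference being -0.51 (SE 0.19, adjusted p = 0.517 in limma), and the Col4a3-/-OPN-/- hearts overlapped both. Without Col4a3-/- replicate 3 this difference was -0.31. Kcna4 lay between 11.03 and 11.44 in all 9 hearts and Kcnd3 between 5.91 and 6.39, with overlap in each comparison. Kcnd1, of the same subfamily, was at 5.52, 5.35 and 5.14 in Col4a3-/-OPN-/- hearts, at 5.36, 5.58 and 5.73 in Col4a3-/- hearts and at 5.18, 5.19 and 5.22 in wild type hearts. Among the 67 tested genes it was the single one with every Col4a3-/- heart above every wild type heart (difference 0.36, SE 0.12, limma adjusted p = 0.496), but the wild type mean lay below the median signal of the array.

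Kcnq1 and Kcnh2 code for the pores of the slow and rapid delayed rectifier currents, best known from inherited long QT syndrome. Kcnq1 was at 8.23, 8.31 and 7.91 in Col4a3-/-OPN-/- hearts, at 7.67, 7.74 and 7.47 in Col4a3-/- hearts and at 7.87, 8.03 and 7.52 in wild type hearts. Kcnh2 was at 8.49, 8.58 and 8.35 in Col4a3-/-OPN-/- hearts, at 8.27, 7.88 and 8.34 in Col4a3-/- hearts and at 8.04, 8.17 and 8.23 in wild type hearts. Every Col4a3-/-OPN-/- heart was above every Col4a3-/- heart for both genes, narrowly so for Kcnh2, and above every wild type heart for Kcnh2. The difference in Col4a3-/-OPN-/- minus Col4a3-/- was 0.52 for Kcnq1 (SE 0.17, limma adjusted p = 0.259) and 0.31 for Kcnh2 (SE 0.15, adjusted p = 0.396). Kcnq1ot1, the non-coding RNA transcribed against Kcnq1, was at 5.61, 5.55 and 5.45 in Col4a3-/-OPN-/- hearts, at 5.10, 5.60 and 5.20 in Col4a3-/- hearts and at 5.07, 5.24 and 5.44 in wild type hearts, and which strand each probe set reads is not given in the sources used here.

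Kcna5, the pore of the ultrarapid delayed rectifier, was at 7.49, 6.96 and 7.18 in Col4a3-/-OPN-/- hearts, at 7.31, 6.56 and 5.77 in Col4a3-/- hearts and at 7.04, 7.04 and 7.21 in wild type hearts. The 3 Col4a3-/- hearts spanned more than the other 6 hearts together (SD 0.77), and the genotypes overlapped. Its neighbour Kcna1, known mainly from nerve, had a log2 difference of 0.48 in Col4a3-/-OPN-/- minus Col4a3-/- (SE 0.17, limma adjusted p = 0.292) and -0.35 in Col4a3-/- minus wild type (SE 0.17, adjusted p = 0.621), where its hearts did not overlap. Kcna6, next to Kcna1, had differences of -0.14 and 0.05.

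Of 12 genes for potassium channel auxiliary subunits 7 were tested. All 7 had a negative difference in Col4a3-/-OPN-/- minus wild type hearts, where 46.9% of all probe sets were negative. The difference was -1.15 for Kcne1 and from -0.25 to -0.10 for the others, and 1 of the 7, Kcne1, had an unadjusted p under 0.05. Kcne1, the partner of Kcnq1 in the slow delayed rectifier, was at 6.06, 6.30 and 5.56 in Col4a3-/-OPN-/- hearts, at 7.79, 7.11 and 6.08 in Col4a3-/- hearts and at 7.42, 7.24 and 6.71 in wild type hearts. All Col4a3-/-OPN-/- hearts were below all wild type hearts, and Col4a3-/- replicate 3 lay among the Col4a3-/-OPN-/- hearts. The log2 difference was -1.15 in Col4a3-/-OPN-/- minus wild type (SE 0.37, limma adjusted p = 0.999, 0.45-fold) and -1.02 in Col4a3-/-OPN-/- minus Col4a3-/- (SE 0.37, adjusted p = 0.300). Kcne1 had the largest within-genotype spread of all 67 genes, an SD of 0.87 in Col4a3-/- hearts. Kcne1 and Kcnq1 thus differed in direction between Col4a3-/-OPN-/- and Col4a3-/- hearts, a contrast between the 2 genes that was not tested.

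Kcnip2 and Kcnip3 code for calcium-binding partners of the transient outward channels, and Kcnip3 also acts as a repressor of transcription. Kcnip2 was at 8.53, 8.85 and 8.89 in Col4a3-/-OPN-/- hearts, at 8.65, 8.29 and 8.74 in Col4a3-/- hearts and at 9.05, 8.97 and 8.58 in wild type hearts, with overlap. Kcnip3 was at 6.38, 6.47 and 6.81 in Col4a3-/-OPN-/- hearts, at 6.52, 6.24 and 6.03 in Col4a3-/- hearts and at 6.78, 6.90 and 6.74 in wild type hearts. For Kcnip3 the Col4a3-/- hearts were all below the wild type hearts (log2 difference -0.54, SE 0.16, limma adjusted p = 0.457). Kcne3 and Kcne4, further small partners of potassium channels, lay between 5.14 and 5.50 and between 5.27 and 5.69, and Kcnab1, a cytoplasmic beta subunit gene, averaged 4.84, below the filter.

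Of 13 inward rectifier genes 8 were tested. Kcnj11 codes for the pore of the sarcolemmal ATP-sensitive potassium channel, which opens when cellular energy falls. Probe set 17491068 of this gene, on chromosome 7, was at 8.20, 7.97 and 7.84 in Col4a3-/-OPN-/- hearts, at 6.83, 7.17 and 6.58 in Col4a3-/- hearts and at 7.19, 7.42 and 7.77 in wild type hearts. The 3 genotypes did not overlap in any comparison, with Col4a3-/-OPN-/- highest and Col4a3-/- lowest, but wild type hearts came close to those of each mutant genotype. The log2 difference was 1.14 in Col4a3-/-OPN-/- minus Col4a3-/- (SE 0.19, 95% interval 0.72 to 1.57, limma adjusted p = 0.0888, 2.21-fold), -0.60 in Col4a3-/- minus wild type (SE 0.19, adjusted p = 0.494) and 0.55 in Col4a3-/-OPN-/- minus wild type (SE 0.19, adjusted p = 0.999). Without Col4a3-/- replicate 2 the first of these was 1.30 and passed (limma adjusted p = 0.0476), that heart being the one with the highest airway and brown fat marker means, while the other settings gave adjusted p up to 0.623. This was the single call of any channel gene in any setting run.

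Abcc8, the gene next to Kcnj11, codes for a sulfonylurea receptor, a regulatory subunit of ATP-sensitive potassium channels. It was at 8.45, 8.38 and 8.35 in Col4a3-/-OPN-/- hearts, at 7.80, 7.85 and 7.57 in Col4a3-/- hearts and at 7.97, 8.40 and 8.09 in wild type hearts. The Col4a3-/- hearts were the lowest 3 of the 9, with a log2 difference of 0.65 in Col4a3-/-OPN-/- minus Col4a3-/- (limma adjusted p = 0.154) and -0.41 in Col4a3-/- minus wild type (adjusted p = 0.505). Abcc9, which codes for the other sulfonylurea receptor, was at 11.31, 11.24 and 10.94 in Col4a3-/-OPN-/- hearts, at 10.88, 10.95 and 11.07 in Col4a3-/- hearts and at 11.01, 10.87 and 11.07 in wild type hearts, with overlap in each comparison.

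Kcnj3 and Kcnj5 code for the subunits of the atrial channel that acetylcholine opens through G proteins. Kcnj3 was at 9.12, 9.28 and 8.78 in Col4a3-/-OPN-/- hearts, at 8.38, 8.98 and 7.99 in Col4a3-/- hearts and at 8.91, 8.98 and 9.10 in wild type hearts. Kcnj5 was at 8.02, 8.29 and 7.93 in Col4a3-/-OPN-/- hearts, at 7.77, 7.87 and 7.50 in Col4a3-/- hearts and at 7.90, 7.74 and 7.63 in wild type hearts. Kcnj3 was low in Col4a3-/- replicates 1 and 3 and overlapped in each comparison, while every Col4a3-/-OPN-/- heart was above all others for Kcnj5. The Col4a3-/-OPN-/- minus Col4a3-/- difference was 0.61 for Kcnj3 (SE 0.22, limma adjusted p = 0.302) and 0.37 for Kcnj5 (SE 0.15, adjusted p = 0.342). In Col4a3-/- minus wild type it was -0.55 for Kcnj3 (SE 0.22, adjusted p = 0.553, and -0.32 without Col4a3-/- replicate 3) and -0.04 for Kcnj5.

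Atrial markers were low in the same hearts, Col4a3-/- replicates 1 and 3. These were also the Col4a3-/- hearts with high Xist and low Eif2s3y, so the atrial signal and this pattern cannot be told apart within the genotype. The 7 measured markers (Nppa, Myl4, Myl7, Sln, Bmp10, Dkk3 and Nr2f2, all above the filter) had a mean of 9.46 to 9.56 in Col4a3-/-OPN-/- hearts, of 8.31, 9.50 and 8.48 in Col4a3-/- hearts and of 9.62 to 9.78 in wild type hearts. With this atrial signal of each heart as a covariate, the Kcnj3 difference in Col4a3-/- minus wild type was 0.05. For Kcnj11 the covariate left 0.88 in Col4a3-/-OPN-/- minus Col4a3-/- (adjusted p = 0.623) and for Cacna1g 0.70 (adjusted p = 0.801). In Col4a3-/- minus wild type it left -0.28 for Kcnj11, -0.39 for Cacna1g and -0.26 for Kcnd2, and in Col4a3-/-OPN-/- minus Col4a3-/- it left 0.32 for Kcnn2. The marker mean was 9.46 or more in every heart but Col4a3-/- replicates 1 and 3, so the covariate mainly sets these hearts apart from the rest. With it, the Col4a3-/- differences rest largely on replicate 2, and atrial content cannot be told apart from other traits of replicates 1 and 3. How much atrium each sample held is not given in the labels, and the part of atrial content in these differences was not tested.

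Kcnj2 and Kcnj12 code for pores of the main inward rectifier current of ventricular muscle. Kcnj2 was at 8.09, 8.21 and 8.34 in Col4a3-/-OPN-/- hearts, at 8.14, 8.03 and 8.88 in Col4a3-/- hearts and at 8.16, 8.13 and 8.21 in wild type hearts. Only Col4a3-/- replicate 3, the heart with the high acute response genes, stood out, and the genotypes overlapped. Kcnj12 lay between 5.85 and 6.23 in all hearts. Kcnj14, a further inward rectifier gene, was at 5.89, 5.82 and 5.64 in Col4a3-/-OPN-/- hearts, at 7.41, 6.61 and 6.24 in Col4a3-/- hearts and at 6.94, 6.70 and 6.49 in wild type hearts. Every Col4a3-/-OPN-/- heart was below every other heart, with a log2 difference of -0.97 in Col4a3-/-OPN-/- minus Col4a3-/- (SE 0.25, limma adjusted p = 0.178, 0.51-fold) and -0.93 in Col4a3-/-OPN-/- minus wild type (SE 0.25, adjusted p = 0.999, 0.52-fold). Without Col4a3-/- replicate 1 the Col4a3-/-OPN-/- minus Col4a3-/- difference of Kcnj14 was -0.65. Between Col4a3-/- and wild type hearts its difference was 0.04 (95% interval -0.51 to 0.60).

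**Figure D2:**
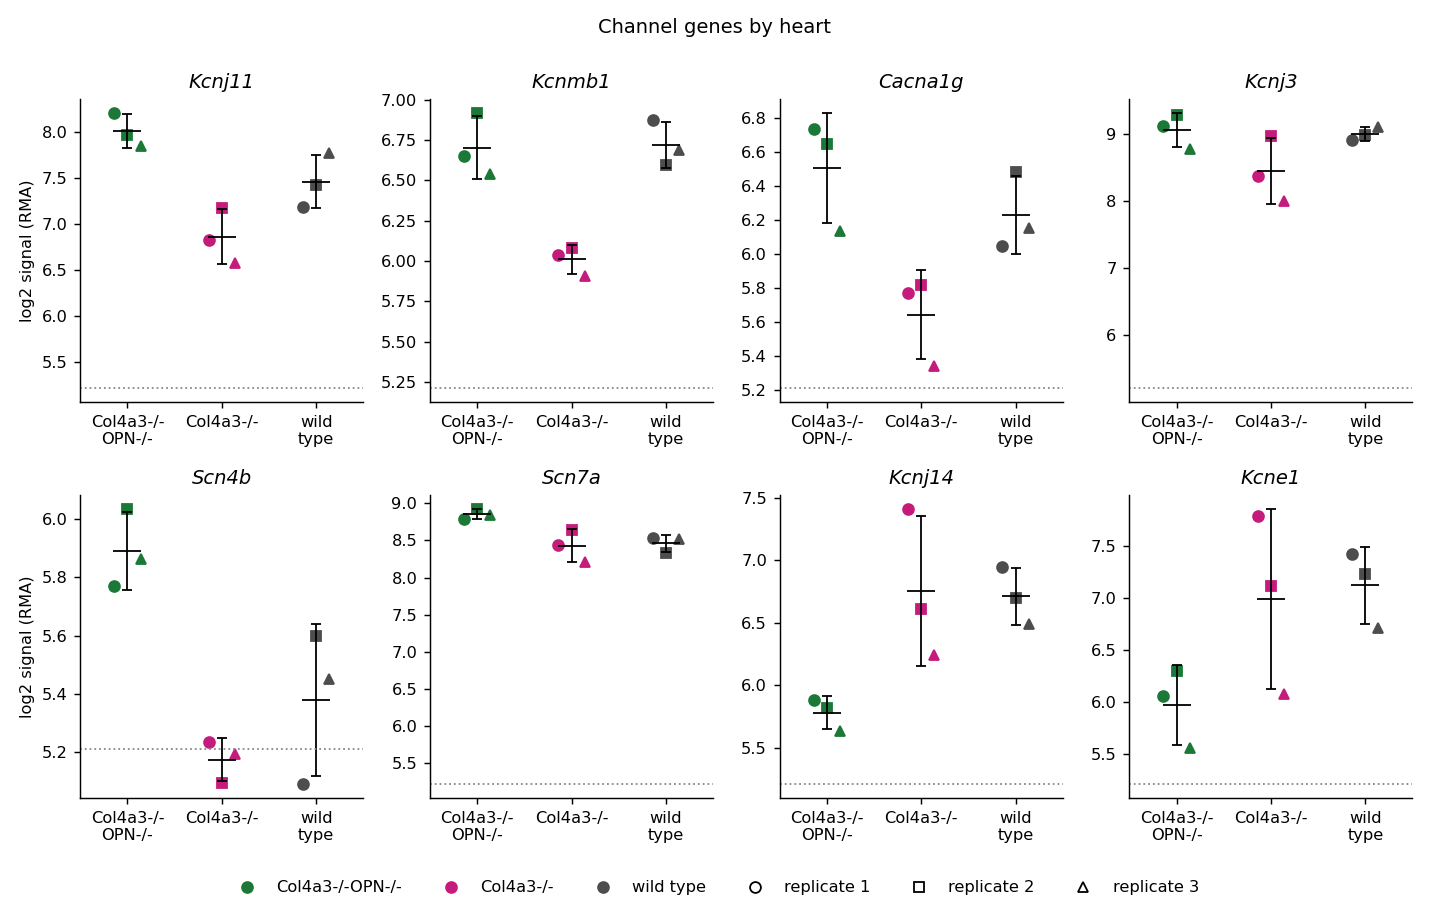
Log2 signal of 8 channel genes in each heart, by genotype (Col4a3-/-OPN-/-, Col4a3-/-, wild type), with 1 point per heart, the mean and its SD (n = 3 hearts), and a dotted line at 5.21, the median over all probe sets. The vertical axes differ between genes. The genotypes are apart in every comparison for Kcnj11, the Col4a3-/- hearts lie below all others for Kcnmb1 and Cacna1g, and the Col4a3-/-OPN-/- hearts lie above all others for Scn4b and Scn7a and below all others for Kcnj14.

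The tandem-pore genes carry background potassium leak currents, and 7 of 13 were tested, all but Kcnk6 with means within 1 log2 unit of the filter. Of the 7, 6 had a negative difference and 1 a positive one in Col4a3-/-OPN-/- minus Col4a3-/- hearts, from -0.46 to 0.01. In this comparison 42.3% of all tested probe sets were negative, and 53.9% of those within 1 log2 unit of the filter. Kcnk4, Kcnk13 and Kcnk5 were lower without overlap (3 of 7), as were 6.48% of all tested probe sets. Kcnk1 was at 5.87, 6.01 and 5.80 in Col4a3-/-OPN-/- hearts, at 5.82, 6.18 and 6.05 in Col4a3-/- hearts and at 5.87, 5.79 and 5.65 in wild type hearts. Kcnk13 was at 5.15, 5.01 and 5.12 in Col4a3-/-OPN-/- hearts, at 5.33, 5.36 and 5.28 in Col4a3-/- hearts and at 5.46, 5.26 and 5.18 in wild type hearts. With means this close to the filter, the size of these differences is uncertain.

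Of 12 genes for potassium channels opened by calcium or sodium, subunits included, 6 were tested. Kcnmb1 codes for the beta subunit of the large-conductance calcium-activated channel of vascular smooth muscle. Probe set 17248374 of this gene, on chromosome 11, was at 6.65, 6.92 and 6.54 in Col4a3-/-OPN-/- hearts, at 6.04, 6.08 and 5.91 in Col4a3-/- hearts and at 6.87, 6.59 and 6.69 in wild type hearts. The Col4a3-/- hearts were the lowest 3 and close to each other, and the other genotypes overlapped. The log2 difference was 0.69 in Col4a3-/-OPN-/- minus Col4a3-/- (SE 0.14, limma adjusted p = 0.132, 1.62-fold) and -0.71 in Col4a3-/- minus wild type (SE 0.14, 95% interval -1.02 to -0.40, adjusted p = 0.322, 0.61-fold). The Col4a3-/-OPN-/- minus wild type difference was -0.02 (95% interval -0.32 to 0.29). Kcnma1, the pore gene of this channel, averaged 5.02, below the filter.

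The mean of the smooth muscle markers moved with Kcnmb1. The 6 measured ones (Myh11, Acta2, Cnn1, Tagln, Smtn and Lmod1, all above the filter) had a mean of 7.88 to 8.09 in Col4a3-/-OPN-/- hearts, of 7.01 to 7.45 in Col4a3-/- hearts and of 8.09 to 8.20 in wild type hearts. The Col4a3-/- hearts were thus the lowest 3 for the marker mean as for Kcnmb1. Each of the 6 was lower in Col4a3-/- than in wild type hearts without overlap. Between the mutant genotypes Myh11, Cnn1 and Tagln did not overlap, while Acta2, Smtn and Lmod1 did. Against wild type hearts, Col4a3-/-OPN-/- hearts were lower for Acta2 (-0.57), Tagln and Lmod1 and higher for Myh11, without overlap. With the marker mean as a covariate, chosen after the data were seen, the Kcnmb1 difference was 0.48 in Col4a3-/-OPN-/- minus Col4a3-/- (limma adjusted p = 0.624) and -0.45 in Col4a3-/- minus wild type (adjusted p = 0.742). The same covariate turned the sign of the Col4a3-/- minus wild type difference for Cacna2d2 (0.04), Kcnd1 (-0.30), Kcnd2 (0.31), Kcnip3 (0.29) and Kcnj3 (0.44). In the same comparison it left -0.20 for Cacna1g and -0.27 for Kcnj11. In Col4a3-/-OPN-/- minus Col4a3-/- it left 0.55 for Cacna1g, 0.27 for Kcnn2 and -1.91 for Kcnj14, and in Col4a3-/-OPN-/- minus wild type -0.74 for Kcne1. Since the marker mean itself did not overlap between Col4a3-/- and the other hearts, genotype and smooth muscle signal cannot be told apart here.

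**Figure D3:**
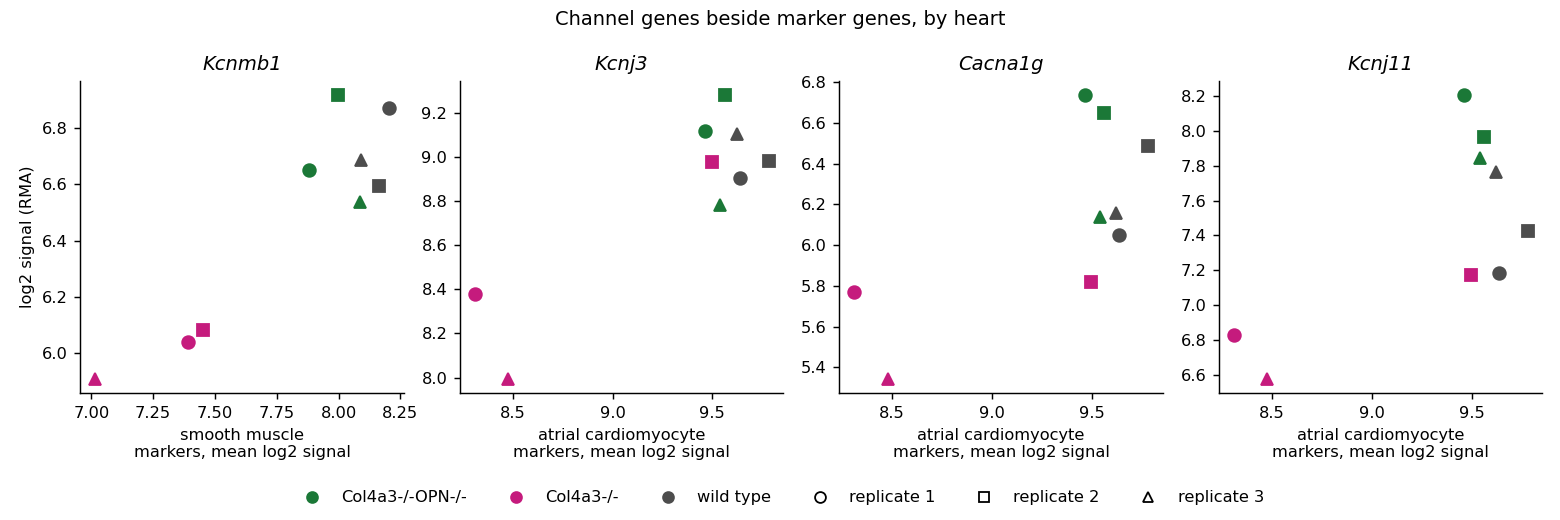
Log2 signal of 4 channel genes in each heart (vertical axis) against the mean log2 signal of smooth muscle markers (Kcnmb1) or of atrial cardiomyocyte markers (Kcnj3, Cacna1g and Kcnj11) in the same heart (horizontal axis), with colour for genotype and shape for replicate number. For Kcnmb1 the 3 Col4a3-/- hearts lie at the low end of both axes, and in the atrial panels Col4a3-/- replicates 1 and 3 lie apart at a marker mean of 8.31 and 8.48.

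Kcnn2, a small-conductance calcium-activated channel gene of atrial muscle and nerve, was at 7.17, 6.67 and 6.94 in Col4a3-/-OPN-/- hearts, at 6.35, 6.65 and 6.26 in Col4a3-/- hearts and at 6.88, 6.71 and 6.84 in wild type hearts. All Col4a3-/- hearts lay below all others, narrowly so for Col4a3-/- replicate 2. The log2 difference was 0.51 in Col4a3-/-OPN-/- minus Col4a3-/- (SE 0.16, limma adjusted p = 0.255) and -0.39 in Col4a3-/- minus wild type (SE 0.16, adjusted p = 0.554). Kcnt2, a sodium-activated channel gene, was at 7.14, 6.88 and 6.94 in Col4a3-/-OPN-/- hearts, at 6.89, 6.84 and 7.31 in Col4a3-/- hearts and at 6.76, 6.74 and 7.03 in wild type hearts, with overlap.

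A list of 36 channel genes known from the working or conducting heart, 27 of them tested, had more negative than positive differences in Col4a3-/- minus wild type hearts and more positive ones in Col4a3-/-OPN-/- minus Col4a3-/- hearts. There were 21 positive and 6 negative differences in Col4a3-/-OPN-/- minus Col4a3-/-, with a median of 0.27, and 57.7% of all probe sets were positive, with a median of 0.043. There were 7 positive and 20 negative ones in Col4a3-/- minus wild type, with a median of -0.16, and 55.0% of all were negative. Col4a3-/-OPN-/- minus wild type gave 18 positive and 9 negative ones, with a median of 0.07. With centred arrays 17 were positive and 10 negative in Col4a3-/-OPN-/- minus Col4a3-/-, 10 and 17 in Col4a3-/- minus wild type, and 15 and 12 in Col4a3-/-OPN-/- minus wild type. No overlap was found for 8 genes (29.6%, against 16.5% of all probe sets) in Col4a3-/-OPN-/- against Col4a3-/- hearts, all higher. The same held for 5 (18.5%, against 12.5% of all) in Col4a3-/- against wild type hearts, all lower, and for 5 (18.5%, against 13.2% of all) in Col4a3-/-OPN-/- against wild type hearts, 4 higher and 1 lower. Without Col4a3-/- replicate 3 there were 19 positive and 8 negative differences in Col4a3-/-OPN-/- minus Col4a3-/-, with a median of 0.14, and 57.9% of all probe sets were positive. Here 8 genes (29.6%) were higher and 1 (3.70%) lower without overlap, against 17.0% and 10.3% of all probe sets. In Col4a3-/- minus wild type there were then 8 positive and 19 negative ones, with a median of -0.08, and 43.5% of all probe sets were positive. In this comparison 5 genes (18.5%) were lower without overlap, against 13.4% of all probe sets. No gene of the list passed the test.

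**Figure D4:**
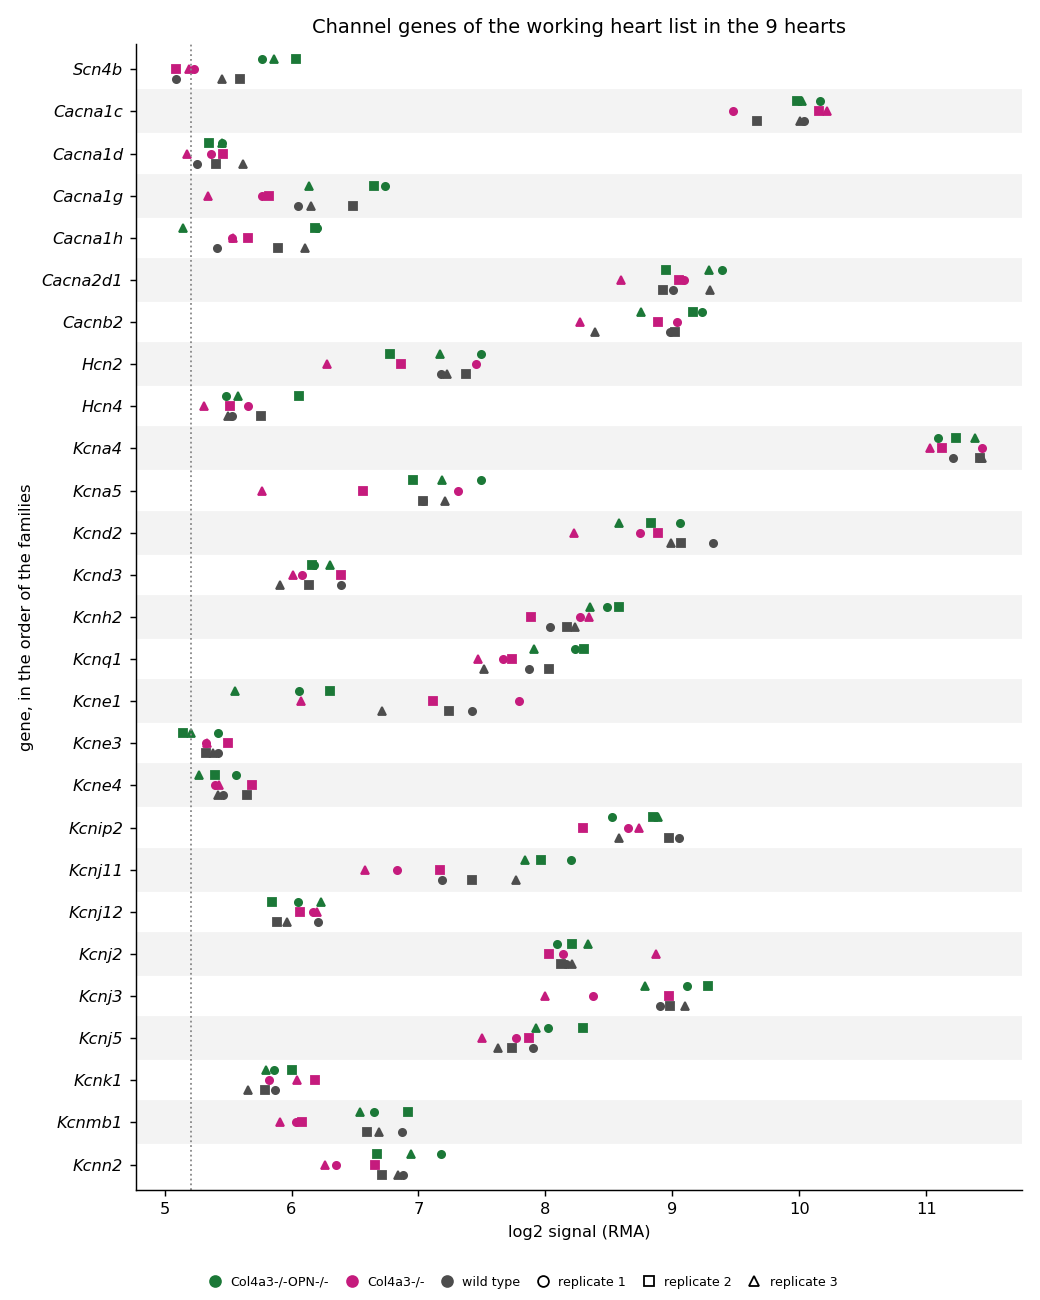
Log2 signal (horizontal axis) of the 27 tested channel genes of the working heart list (rows, in the order of the families) in each of the 9 hearts, with colour for genotype, shape for replicate number and a dotted line at 5.21. The genotypes overlap for most genes, and for Kcnmb1, Cacna1g and Scn4b, among others, the hearts of 1 genotype lie apart from those of both others.

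The other genes of cardiac electrophysiology, such as channel partners, gap junction proteins and regulators, were described by a list of 52, of which 43 were tested. None passed the test in any comparison. Col4a3-/-OPN-/- minus Col4a3-/- hearts gave 34 positive and 9 negative differences, with a median of 0.19, where 57.7% of all probe sets were positive, and 9 (20.9%, against 16.5% of all) had no overlap, all higher. In Col4a3-/- minus wild type hearts 15 were positive and 28 negative, with a median of -0.08, where 55.0% of all were negative, and 10 (23.3%, against 12.5% of all) had no overlap, 2 higher and 8 lower. Col4a3-/-OPN-/- minus wild type hearts gave 31 positive and 12 negative ones, with a median of 0.10, and 5 (11.6%, against 13.2% of all) had no overlap, 4 higher and 1 lower. Without Col4a3-/- replicate 3 the first comparison gave 32 positive and 11 negative differences, and the second 12 and 31, while 57.9% and 43.5% of all probe sets were positive. With centred arrays 26 were positive and 17 negative in Col4a3-/-OPN-/- minus Col4a3-/-, 20 and 23 in Col4a3-/- minus wild type, and 26 and 17 in Col4a3-/-OPN-/- minus wild type.

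Fgf12, a cytoplasmic partner of sodium channels, was at 7.40, 7.32 and 8.09 in Col4a3-/-OPN-/- hearts, at 6.34, 7.42 and 5.95 in Col4a3-/- hearts and at 7.82, 7.75 and 7.61 in wild type hearts. All Col4a3-/- hearts were below the wild type hearts, the log2 difference being -1.16 (adjusted p = 0.451 in limma). The low values lay in Col4a3-/- replicates 1 and 3, which had both the low atrial markers and the high Xist. Rrad, a small GTPase that restrains the L-type calcium channel, was at 8.81, 9.85 and 9.76 in Col4a3-/-OPN-/- hearts, at 9.77, 10.31 and 10.74 in Col4a3-/- hearts and at 9.62, 9.11 and 9.11 in wild type hearts. All Col4a3-/- hearts were above the wild type hearts for Rrad, the log2 difference being 0.99 (adjusted p = 0.460 in limma). Akap6, an anchor of protein kinase A, had a difference of 0.67 in Col4a3-/-OPN-/- minus Col4a3-/- (limma adjusted p = 0.178) and -0.52 in Col4a3-/- minus wild type (adjusted p = 0.496), with no overlap in either. Ank3, which anchors sodium channels in the membrane, had a difference of 0.46 in Col4a3-/-OPN-/- minus Col4a3-/- (adjusted p = 0.190), and its Col4a3-/-OPN-/- hearts were above all others. The smallest p-values in Col4a3-/-OPN-/- minus wild type were those of Irx4, a ventricular transcription factor (0.49), Ahnak (0.36) and the connexin gene Gjd3 (-0.31), each with an adjusted p of 0.999.

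**Figure D5:**
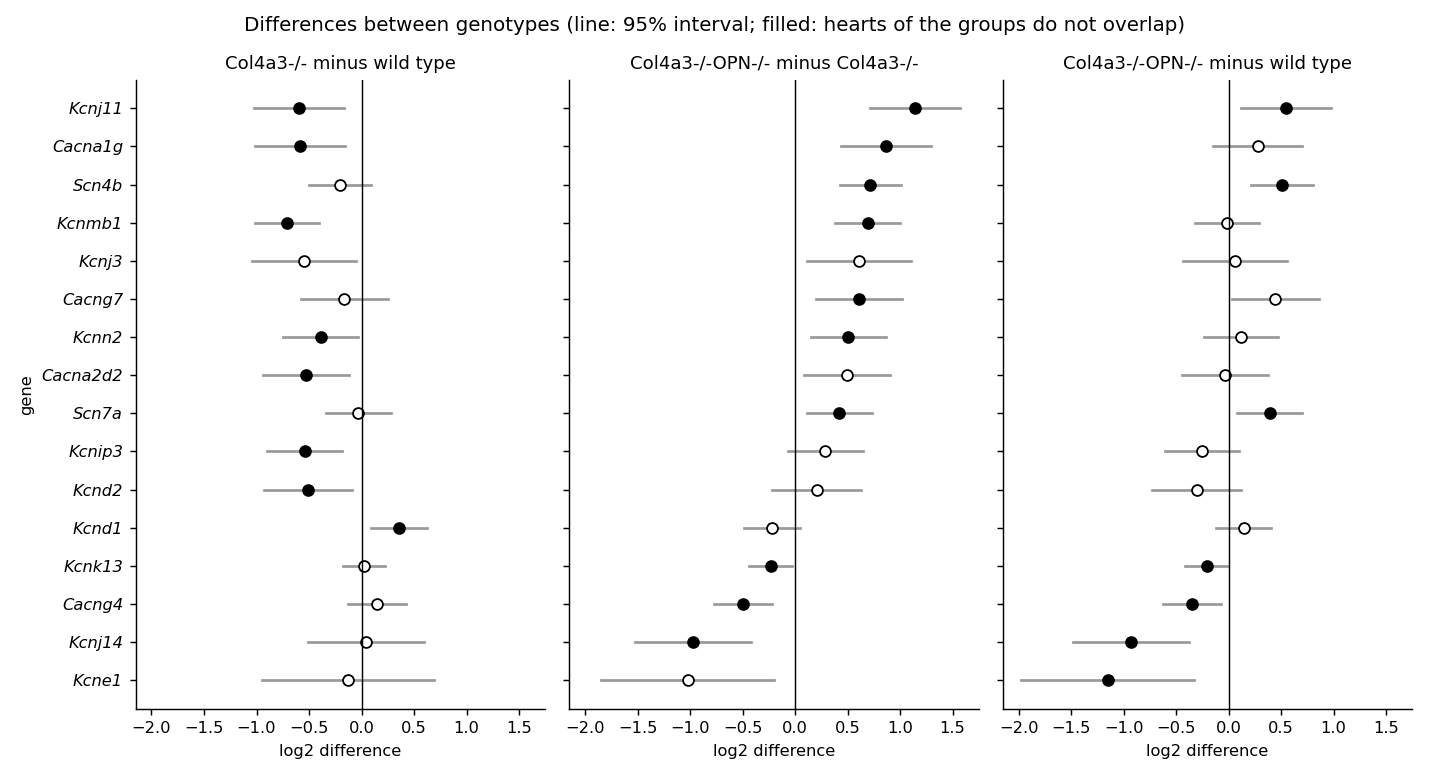
Log2 differences (points) with 95% intervals (lines) in the 3 comparisons for the 16 channel genes that had the smallest p-values in any of them, with filled points where the hearts of the compared genotypes do not overlap. Genes are ordered by the difference between Col4a3-/-OPN-/- and Col4a3-/- hearts, from Kcnj11 (1.14) to Kcne1 (-1.02), and the panels share hearts.

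Spread within a genotype differed between genotypes and genes. The median SD over the 67 genes was 0.167 in Col4a3-/-OPN-/-, 0.196 in Col4a3-/- and 0.150 in wild type hearts, and over all tested probe sets it was 0.135, 0.211 and 0.121 in the same order of genotypes. After Kcne1 and Kcna5, the largest SDs were those of Cacna1h in Col4a3-/-OPN-/- hearts (0.61), and of Kcnj14 (0.60) and Hcn2 (0.59) in Col4a3-/- hearts. The 61 genes below the filter had mean signals from 4.42 to 5.19, and a low array signal does not show that a gene is not transcribed.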

How the data were processed

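The deposited table holds log2 signals of 33793 probe sets in 9 hearts, which the authors computed with RMA, per the submitters' processing notes. RMA corrects background, makes the arrays' signal distributions alike and summarises the probes of a set, and its version is not given in the sources used here. Probe sets were named from the platform annotation, 23521 with 1 symbol, 1814 with several and 8458 not listed, and all 128 genes had their identifier in a RefSeq gene table (GRCm38.p6), which gave current symbols, chromosomes and neighbours. A second probe set existed for 10 of the 128 genes, all of them below the filter.

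The log2 values as deposited were fitted with limma 3.58.1 in R 4.3.3 (a mean per genotype over all 9 hearts, eBayes with an intensity trend) over the 13650 probe sets with 1 symbol and a mean above 5.21, and p-values were adjusted by Benjamini-Hochberg over all of them, with a threshold of 0.05. Precision is limited by the number of arrays, and nothing in the labels says more of how the hearts were sampled. The script was tested on simulated data. Whether groups overlapped was read from the values of the single hearts. Named were, per comparison, the 8 genes of smallest p, the list of the working heart, the 10 with the highest mean, the highest of each family and the 5 with the largest SD within a genotype; of the other genes of electrophysiology, the 3 with the smallest p in each comparison. Genes listed for having no overlap, Abcc9, the neighbours of Kcnj11, Cacng7 and Kcna5, the genes with printed promoters and Scn3a, Kcnk4, Kcnk5 and Kcnk6 were named after their values were seen.

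The channel genes, the gene lists and the markers were chosen with earlier results of these data known. The smooth muscle covariate, the split by brightness, the counts without Col4a3-/- replicate 2 or 3 or with centred arrays, the promoters and the motifs were chosen after the data were seen. Same-numbered hearts of the genotypes correlated at r between -0.194 and 0.230 in their deviations from the genotype means, so the replicate numbers were not taken as pairs. Some genes of these families are not reported here.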

Additional observations from a re-analysis of the deposited data

How the results depend on the processing

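The results were recomputed under 21 other settings, which left out each heart in turn or changed the scaling, the filter, the moderation, the array weights, the samples in the fit, the probe sets or the covariates. The number of channel genes past the threshold in Col4a3-/-OPN-/- minus Col4a3-/- was 0 to 1 with a heart left out, the 1 being Kcnj11 without Col4a3-/- replicate 2, and 0 in all other settings, and the other comparisons and the F-test gave 0 in every setting run. With the replicate number as a block 0 channel genes passed in each comparison, as without it, and over all probe sets 0 passed in Col4a3-/-OPN-/- minus Col4a3-/- against 6 without the block. Genes of electrophysiology outside the channel families stayed at 0.

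The median difference of the channel genes moved with the filter and the scaling. In Col4a3-/-OPN-/- minus Col4a3-/- it was -0.070 with centred arrays, -0.025 without a filter, 0.289 with the filter 1 log2 unit higher, 0.0011 with the atrial covariate, -0.108 with the smooth muscle covariate and 0.0027 to 0.065 with a heart left out. In Col4a3-/- minus wild type it was 0.023 with centred arrays, 0.0015 without a filter, -0.159 with the higher filter, 0.086 with the smooth muscle covariate and -0.098 to -0.012 with a heart left out. In Col4a3-/-OPN-/- minus wild type it was -0.062 with centred arrays, 0.063 with the higher filter and -0.035 to -0.00038 with a heart left out. Single genes were recomputed for the 8 with the smallest p in each comparison. Signs turned in Col4a3-/- minus wild type with the smooth muscle covariate for Cacna2d2 (0.035), Kcnd1 (-0.302), Kcnd2 (0.310), Kcnip3 (0.292) and Kcnj3 (0.444), and with the atrial covariate for Kcnj3 (0.045). The cause was not tested. Probe sets near the median signal of the array limit what can be said of 40 of the 67 tested genes.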
